A study of Mus musculus with 8 samples.

Results

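The genes described here encode the proteins of the mitochondrial ribosome. They were taken as every row of the array whose only gene symbol is Mrpl or Mrps followed by digits, with at most 1 letter after them. This gave 69 rows for 68 genes, of 14860 genes with a row of their own and 16755 rows in all, with 43 genes named for the large subunit (Mrpl) and 25 for the small subunit (Mrps). Members were chosen by symbol, and a gene with several rows by its measured values: the row was selected on the highest mean level over the 8 arrays. This applied to Mrpl48 alone, whose row at 7.95 on the log2 scale was used in place of the row at 3.31. The choice used no difference between groups.

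The samples were gastrocnemius, the large calf muscle, of 12-week-old male C57BL/6 mice, an inbred laboratory strain. The ursolic acid group had eaten standard chow with 0.27% ursolic acid, a triterpenoid of fruit peel, for 5 weeks, and the control group the same chow without it. Each group held 4 samples, each of RNA pooled from 2 mice, and the study asked how ursolic acid changes mRNA levels in muscle. Titles and treatment labels set the groups here, and the free-text descriptions contradict them for 4 of the 8 samples: ursolic acid samples 1 and 3 are described as untreated and control samples 2 and 4 as treated.

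Mitochondria keep their own small genome, whose few protein-coding genes all specify core parts of the machinery of oxidative phosphorylation. These proteins are made inside the organelle by a dedicated ribosome, whose RNAs come from mitochondrial DNA and whose proteins are all encoded in the nucleus, translated in the cytosol and imported. The small subunit holds the decoding site, where mRNA and tRNA meet, and the large subunit holds the peptidyl transferase centre and the exit tunnel, which faces the inner membrane. Skeletal muscle is rich in mitochondria, and loss of single mitochondrial ribosomal proteins in humans causes defects of oxidative phosphorylation.

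Each array gave a log2 expression value per row, with medians of 5.55 to 5.61. Control sample 1 had a mean Spearman correlation of 0.977 with the other arrays, against 0.983 to 0.986 for the other 7. The muscle label was borne out by its markers: all 9 measured ones, among them Ckm (muscle creatine kinase) and Tnnt3 (fast troponin T), had a mean level of 10.04 to 12.48, where the median row was at 5.58. Single values of the 68 ribosomal genes ran from 5.23 to 10.97, and 66 of them had a mean level at or above that of the median row. Probes differ in how strongly they bind, so levels of different genes are not ranked here.

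The starts of these genes are shown first, since control regions of this family are known in mammals for binding sites of ETS factors such as GABP (nuclear respiratory factor 2), of NRF-1 and of YY1, all of which drive nuclear genes of mitochondria. RefSeq promoter windows of build GRCm38.p6, 250 bases before to 50 after each annotated start, were found for 59 of the 68 genes, as 65 windows. The ETS core with its flank, CCGGAAG, was found on either strand in 30.8% of these windows, against 12.5% of the 14898 windows of all genes with a row of their own. For YY1, searched as AAGATGGC, the shares were 16.9% and 3.36%, and for the NRF-1 palindrome 16.9% and 7.32%. The CCAAT box was in 41.5% and 37.5%, the TATA box (TATAAA) in 7.69% and 10.9%, and the median GC content of both sets was 58.3%. In the large subunit 28.6% of windows held the ETS letters, 21.4% those of NRF-1 and 11.9% those of YY1, against 34.8%, 8.7% and 26.1% in the small subunit. These are matches of letters in a window, not sites shown to be bound, and the NRF-1 motif reads nearly alike on both strands, so its matches can coincide.

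Of the 59 genes, 35 held letters of ETS, NRF-1 or YY1, as did 2827 of 11869 genes overall. Further on, 10 genes are described that had an unadjusted limma p under 0.05 between ursolic acid and control. Of these 10, 5 held such letters, so a match was no more common among them. The windows below are those of these 5 genes. They read 5' to 3' on the strand of the gene, with the matched letters in capitals: YY1 in Mrps11 and Mrpl35, ETS in Mrpl43 and Mrpl34, and NRF-1 in Mrpl45.
Mrps11 (chr7:78782881-78783180, plus strand): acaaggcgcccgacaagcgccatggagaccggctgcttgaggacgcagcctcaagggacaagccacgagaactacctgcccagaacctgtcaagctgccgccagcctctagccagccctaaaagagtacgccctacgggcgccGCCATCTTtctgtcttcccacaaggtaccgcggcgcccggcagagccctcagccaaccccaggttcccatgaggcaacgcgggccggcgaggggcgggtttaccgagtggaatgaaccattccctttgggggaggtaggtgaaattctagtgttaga
Mrpl43 (chr19:45006393-45006692, minus strand): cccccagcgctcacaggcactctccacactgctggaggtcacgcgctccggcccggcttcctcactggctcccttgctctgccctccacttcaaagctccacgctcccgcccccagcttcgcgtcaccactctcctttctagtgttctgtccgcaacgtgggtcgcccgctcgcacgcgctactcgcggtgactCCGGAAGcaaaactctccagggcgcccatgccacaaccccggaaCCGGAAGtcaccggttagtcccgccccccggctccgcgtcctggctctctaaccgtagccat
Mrpl34 (chr8:71464676-71464975, plus strand): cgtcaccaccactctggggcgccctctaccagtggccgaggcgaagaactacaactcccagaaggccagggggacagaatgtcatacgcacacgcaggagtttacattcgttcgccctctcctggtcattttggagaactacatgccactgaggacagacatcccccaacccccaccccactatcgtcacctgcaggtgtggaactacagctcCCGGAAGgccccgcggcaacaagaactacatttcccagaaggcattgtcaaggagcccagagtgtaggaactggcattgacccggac
Mrpl35 (chr6:71823735-71824034, minus strand): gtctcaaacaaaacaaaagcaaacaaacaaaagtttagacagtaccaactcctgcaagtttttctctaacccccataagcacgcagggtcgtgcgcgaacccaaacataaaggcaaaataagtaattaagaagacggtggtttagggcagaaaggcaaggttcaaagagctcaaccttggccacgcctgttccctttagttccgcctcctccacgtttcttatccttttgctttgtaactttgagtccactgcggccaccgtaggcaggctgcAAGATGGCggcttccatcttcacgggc
Mrpl45 (chr11:97315466-97315765, plus strand): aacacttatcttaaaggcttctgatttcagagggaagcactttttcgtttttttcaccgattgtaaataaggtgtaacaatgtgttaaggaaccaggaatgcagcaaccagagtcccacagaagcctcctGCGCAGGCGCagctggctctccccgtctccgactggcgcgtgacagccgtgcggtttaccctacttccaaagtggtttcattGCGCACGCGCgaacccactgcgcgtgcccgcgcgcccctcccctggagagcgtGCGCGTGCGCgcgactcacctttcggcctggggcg

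Mrps11 and Mrpl46 start 42 bases apart on opposite strands and run away from each other, so the Mrps11 window printed here also holds the start of Mrpl46. Such a divergent neighbour, a gene on the other strand starting at most 500 bases upstream (or overlapping by up to 50), was found for 22 of the 59 genes, or 37.3%, and for 14.3% of all genes with a window. Mrpl43 starts 116 bases from Twnk, the helicase of mitochondrial DNA replication, and Mrps12, a protein of the decoding site, 147 bases from Sars2, the mitochondrial seryl-tRNA synthetase. Mrpl47 starts 308 bases from Ndufb5, a subunit of respiratory complex I, and Mrpl32 lies 205 bases from Psma2, a proteasome subunit.

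Expression of the mitochondrial ribosomal protein genes differed little between muscle of mice fed ursolic acid and control muscle. The differences leaned upward in both subunits. In the small subunit the lean was weaker and depended on the samples and the normalization, as given below. Of 68 genes, 51 had a higher mean with ursolic acid and 17 a lower one, while 45.5% of all rows and 53.6% of the 8378 rows at or above the median level were higher. The median log2 difference was 0.06, which is 1.05-fold, against −0.01 over all rows and 0.01 over the rows at or above the median level. The largest difference was that of Mrpl32, at 1.20-fold, and the lowest that of Mrps18b, at 0.890 of control, so differences in the family were small on a linear scale. In whole muscle, more RNA per cell and more cells of a type cannot be told apart.

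By limma, 0 of the 68 genes passed an adjusted p of 0.05 over all 16755 rows, where 0 rows (0%) passed in this fit, and the smallest adjusted p in the family was 0.392. With an unadjusted p under 0.05 there were 10 genes higher in muscle of the ursolic acid group, and 0 lower. That is 14.7% higher and 0% lower, beside 4.08% and 3% of all rows and 5.91% and 2.96% of the rows at or above the median level. The groups did not overlap, with ursolic acid higher, in 8 genes (11.8%), and with ursolic acid lower in 0, beside 2.66% and 1.83% of all rows and 4.2% and 2.12% of the rows at or above the median level. With 1 sample left out, fewer genes were higher at an unadjusted p under 0.05. They numbered 6, 4, 6 and 5 without ursolic acid sample 1, 2, 3 or 4. They numbered 5, 5, 6 and 9 without control sample 1, 2, 3 or 4. In these 8 fits 3.23% to 4.65% of all rows were higher. These counts hold genes outside the 10, such as Mrpl13, Mrpl24 and Mrpl32 without control sample 4. Apart from Mrpl47, each of the 10 passed in 1 to 5 of the 8 fits. Quantile normalization gave 4 higher genes, Mrpl47, Mrpl40, Mrpl43 and Mrpl45, and 1 lower, Mrpl33, where 3.99% of all rows were higher and 3.29% lower.

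**Figure D1:**
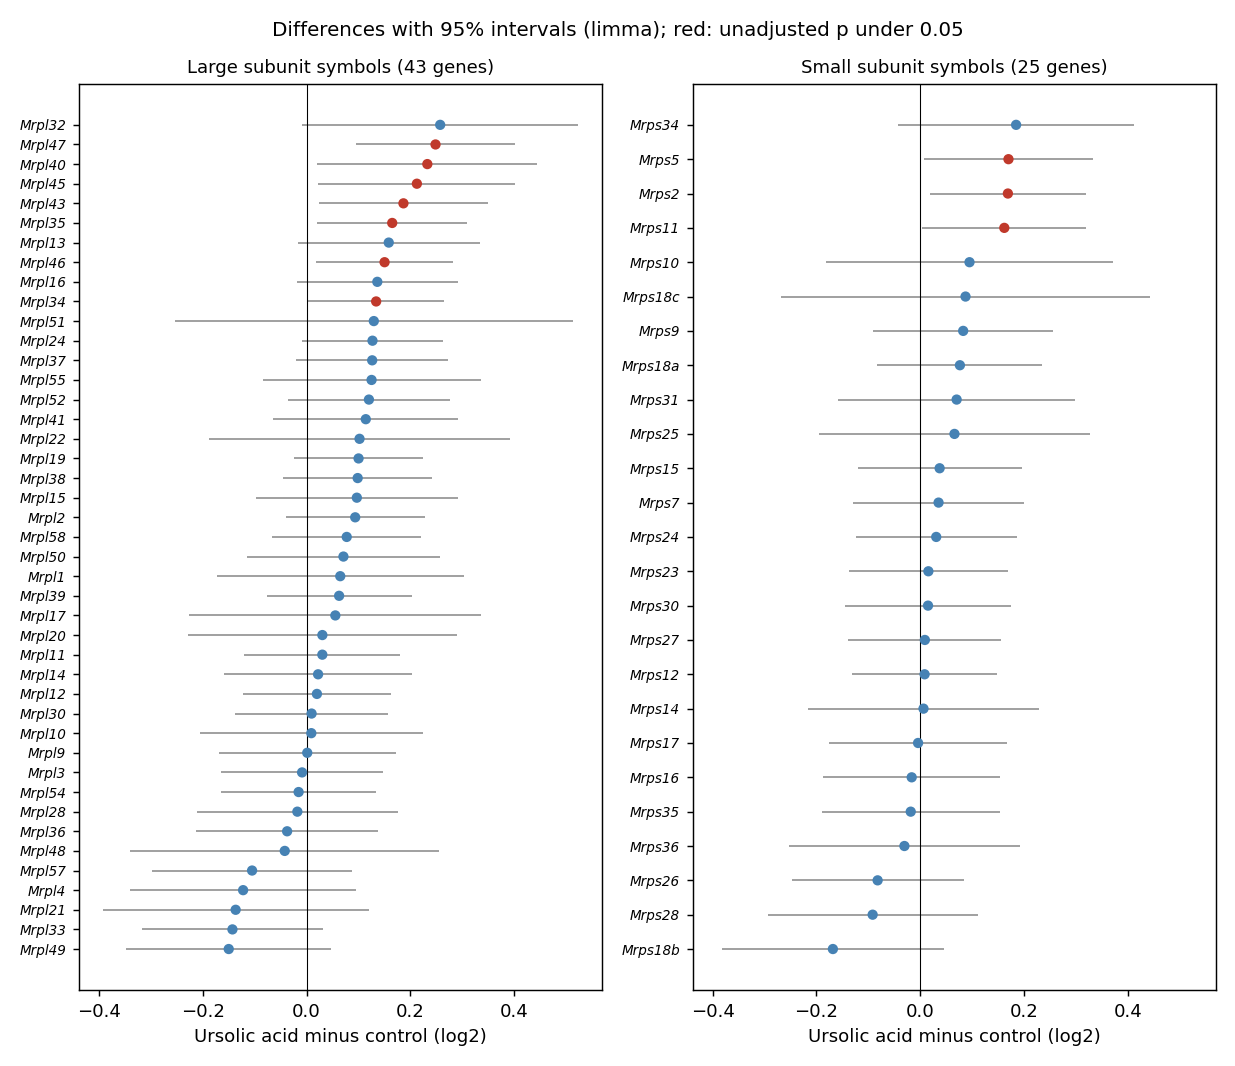
Difference of each of the 68 genes, ursolic acid minus control on the log2 scale, with limma's 95% interval as a line, for 43 large subunit and 25 small subunit symbols. The 10 genes in red, with an unadjusted p under 0.05, all lie right of 0, and the intervals of the other 58 hold 0.

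In the large subunit, 33 of 43 genes had a higher mean with ursolic acid, with a median difference of 0.08 and differences of −0.15 to 0.26. Of all 43, 7 (16.3%) were higher with an unadjusted limma p under 0.05, and 0 were lower, beside 4.08% and 3% of all rows. Mrpl47, which lies near the mouth of the exit tunnel, had the smallest p of the family. Its values were 7.47, 7.52, 7.38 and 7.36 in ursolic acid samples 1 to 4, against 7.17, 7.12, 7.14 and 7.30 in control samples 1 to 4. All 4 ursolic acid samples lay above all 4 controls, with a log2 difference of 0.25 ± 0.07 (SE), or 1.19-fold, and an unadjusted p of 0.00486 (limma adjusted p = 0.392). It was the only one of the 10 genes with an unadjusted p under 0.05 in all 8 fits that left out 1 sample.

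Mrpl45, which holds the ribosome to the inner membrane at the tunnel exit, had 7.04, 6.96, 6.75 and 6.82 in the ursolic acid samples, against 6.69, 6.65, 6.56 and 6.82 in the controls. Here 3 of 4 ursolic acid samples lay above every control, and sample 3 lay below control sample 4. The difference was 0.21 ± 0.09 (SE; limma adjusted p = 0.658). Mrpl40, a protein found only in mitochondrial ribosomes, had 7.54, 7.64, 7.39 and 7.59 in ursolic acid samples, against 7.22, 7.15, 7.31 and 7.54 in control. Control sample 4 reached into the ursolic acid range, and the difference was 0.23 ± 0.09 (SE; limma adjusted p = 0.666).

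Mrpl43, the divergent neighbour of Twnk, had 6.88, 6.97, 6.89 and 6.99 in ursolic acid samples, against 6.61, 6.78, 6.88 and 6.71 in control. Control sample 3 lay just above the lowest ursolic acid value, that of sample 1, and the difference was 0.19 ± 0.07 (SE; limma adjusted p = 0.655). Mrpl35 and Mrpl34, both with counterparts in bacterial ribosomes, did not overlap between groups. Mrpl35 had 8.25, 8.11, 8.11 and 8.07 in ursolic acid samples, against 7.91, 7.95, 8.03 and 7.98 in control, a difference of 0.17 ± 0.06 (SE; limma adjusted p = 0.656). Mrpl34 had 7.96, 7.95, 7.98 and 7.89, against 7.87, 7.80, 7.77 and 7.80, a difference of 0.13 ± 0.06 (SE; limma adjusted p = 0.703).

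**Figure D2:**
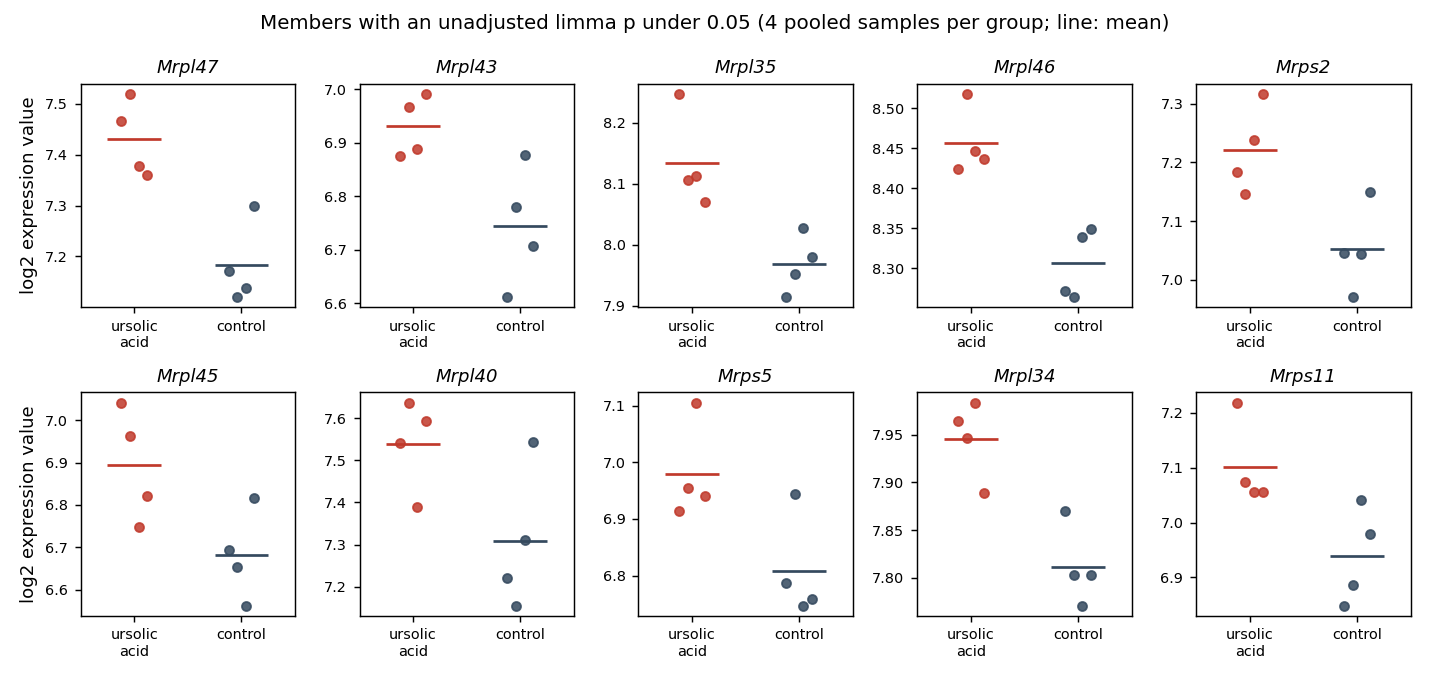
Log2 expression value of the 10 genes with an unadjusted limma p under 0.05, ordered by p, with a point per pooled sample (4 per group) and a line at the group mean; each panel has its own range. The groups do not overlap in Mrpl47, Mrpl35, Mrpl46, Mrpl34 and Mrps11, and in the other 5 at least 1 control sample reaches into the ursolic acid range.

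Mrpl46 and Mrps11 sit in different subunits and share the divergent start described above. Mrpl46 had 8.42, 8.52, 8.45 and 8.44 in ursolic acid samples, against 8.27, 8.26, 8.34 and 8.35 in control, with a difference of 0.15 ± 0.06 (SE; limma adjusted p = 0.657). Mrps11 had 7.22, 7.07, 7.06 and 7.06 in ursolic acid samples, against 6.85, 6.89, 7.04 and 6.98 in control, with a difference of 0.16 ± 0.07 (SE; limma adjusted p = 0.703). In both genes all 4 ursolic acid samples lay above all controls, with sample 2 highest for Mrpl46 and sample 1 highest for Mrps11.

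Among large subunit genes that missed the unadjusted threshold, Mrpl24, Mrpl19 and Mrpl38 had groups that did not overlap, with differences of 0.13, 0.10 and 0.10. Mrpl19 had the smallest spread within groups in the large subunit (pooled SD 0.0248), at 6.54, 6.58, 6.60 and 6.55 in ursolic acid samples, against 6.45, 6.45, 6.50 and 6.46 in control. Mrpl32, which must be cut by a mitochondrial protease before it joins the ribosome, had the largest difference in the family, 0.26 ± 0.12 (SE; limma adjusted p = 0.721). Its values of 6.70, 7.00, 6.75 and 6.92 with ursolic acid overlapped those of 6.27, 6.55, 6.72 and 6.80 in control. Mrpl13, Mrpl16, Mrpl37, Mrpl55, Mrpl52, Mrpl41 and Mrpl51 had differences of 0.16, 0.14, 0.13, 0.13, 0.12, 0.11 and 0.13. Mrpl51 had the largest spread of the family, with a pooled SD of 0.298 and values of 7.10 to 7.87 in ursolic acid samples, against 6.99 to 7.59 in control.

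The ribosomal stalk recruits translation factors. Mrpl12, a stalk protein that also binds the mitochondrial RNA polymerase, averaged 8.83 ± 0.08 with ursolic acid and 8.81 ± 0.04 in control (SD, n = 4 each), with a 95% interval of the difference of −0.12 to 0.16. Mrpl11, at the stalk base, had a difference of 0.03 (interval −0.12 to 0.18). The other small positive differences belonged to Mrpl22 (0.10), Mrpl15 (0.10), Mrpl2 (0.09), Mrpl58 (0.08), Mrpl50 (0.07), Mrpl1 (0.06), Mrpl39 (0.06), Mrpl17 (0.06), Mrpl20 (0.03), Mrpl14 (0.02), Mrpl30 (0.01), Mrpl10 (0.01) and Mrpl9 (0.0013). Mrpl58 is a peptidyl-tRNA hydrolase built into the ribosome.

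Lower means with ursolic acid were found for 10 large subunit genes, none at an unadjusted p of 0.05. Mrpl49, a mitochondria-specific protein, had 7.34, 7.24, 7.61 and 7.36 in ursolic acid samples, against 7.61, 7.46, 7.46 and 7.62 in control, with a difference of −0.15 ± 0.09 (SE). Mrpl33, which has a bacterial counterpart, had 7.42, 7.25, 7.44 and 7.29, against 7.42, 7.47, 7.42 and 7.65, with a difference of −0.14 ± 0.08 (SE). In both, 1 or more ursolic acid samples lay inside the control range. Mrpl21 (−0.14), Mrpl4 (−0.12), Mrpl57 (−0.10), Mrpl48 (−0.04), Mrpl36 (−0.04), Mrpl28 (−0.02), Mrpl54 (−0.02) and Mrpl3 (−0.01) made up the rest. Without ursolic acid sample 3, Mrpl49 and Mrpl4 reached an unadjusted p under 0.05, at −0.22 and −0.20. The unused row of Mrpl48 had a difference of 0.49 ± 0.23 (SE; limma adjusted p = 0.734), opposite in sign to the row used.

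In the small subunit, 18 of 25 genes had a higher mean with ursolic acid, with a median difference of 0.03 and differences of −0.17 to 0.18. Of all 25, 3 (12.0%) were higher with an unadjusted limma p under 0.05 and 0 were lower, beside 4.08% and 3% of all rows. The groups did not overlap, with ursolic acid higher, in 1 (4%), Mrps11. That share is near the 2.66% of all rows and 4.2% of the rows at or above the median level. Mrps2, which has a bacterial counterpart, had 7.18, 7.15, 7.24 and 7.32 in ursolic acid samples, against 7.04, 6.97, 7.04 and 7.15 in control. Only ursolic acid sample 2 and control sample 4 met, and the difference was 0.17 ± 0.07 (SE; limma adjusted p = 0.658). Mrps5, whose lower dosage is linked to longer life in worms, had 6.91, 6.95, 7.11 and 6.94 in ursolic acid samples, against 6.79, 6.94, 6.75 and 6.76 in control. Control sample 2 lay within the ursolic acid range, and the difference was 0.17 ± 0.07 (SE; limma adjusted p = 0.692). Mrps34 had a difference as large, 0.18 ± 0.10 (SE), with control sample 1 at 8.25 above 3 of the 4 ursolic acid samples (limma adjusted p = 0.772).

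Mice carry a trio of proteins related to the bacterial S18 protein, of which Mrps18b and Mrps18c sit in the small subunit and Mrps18a, despite its name, in the large one. Mrps18b had 6.14, 6.16, 6.12 and 6.03 in ursolic acid samples, against 6.57, 6.15, 6.23 and 6.17 in control. Its difference of −0.17 ± 0.10 (SE; limma adjusted p = 0.787) was the lowest in the family, and the control samples were led by sample 1. Mrps18c had 10.47, 10.90, 10.97 and 10.85 in ursolic acid samples, against 10.24, 10.90, 10.85 and 10.84 in control, where sample 1 was far below the other 3, and the difference was 0.09 ± 0.16 (SE). Mrps18a had a difference of 0.08 ± 0.07 (SE), with 9.23, 9.08, 9.09 and 9.11 in ursolic acid samples, against 9.11, 9.10, 8.91 and 9.11 in control.

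Mrps12, of the decoding site, averaged 8.82 ± 0.07 with ursolic acid and 8.81 ± 0.05 in control (SD, n = 4 each), with an interval of −0.13 to 0.15. Mrps27, an RNA-binding protein, had a difference of 0.01 (interval −0.14 to 0.16), and Mrps30, which like Mrps18a sits in the large subunit, one of 0.02 (interval −0.14 to 0.17). The differences of Mrps10, Mrps9, Mrps31, Mrps25, Mrps15, Mrps7, Mrps24, Mrps23 and Mrps14 were 0.09, 0.08, 0.07, 0.07, 0.04, 0.04, 0.03, 0.02 and 0.01. On the lower side, Mrps28, the counterpart of a bacterial protein, and Mrps26, which is mitochondria-specific, had −0.09 ± 0.09 and −0.08 ± 0.07 (SE), and Mrps35, Mrps16 and Mrps17 had −0.02, −0.02 and −0.0042. Mrps36, at −0.03 ± 0.10 (SE), keeps its ribosomal symbol but is known as a subunit of the oxoglutarate dehydrogenase complex. Rows for Mrps6, Mrpl53 and Mrps22 carry a second gene's symbol as well and were left out; their differences were −0.13, 0.05 and 0.04.

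The contrast between the subunits overlapped between the groups. The median difference was higher by 0.05 in the large than in the small subunit, 0.08 against 0.03, and still by 0.05 when Mrps18a and Mrps30 were counted in the large subunit. As a value per array, each gene's deviation from its own mean over the 8 arrays was averaged over the subunit. For the large subunit this mean deviation was 0.034, 0.047, 0.040 and 0.009 in ursolic acid samples 1 to 4, against −0.074, −0.039, −0.011 and −0.006 in control samples 1 to 4, so the groups did not overlap. The pooled SD of this value between arrays was 0.025. The rows at or above the median level had −0.001, 0.005, 0.005 and 0.021 in ursolic acid samples 1 to 4. In control samples 1 to 4 those rows had −0.035, 0.0007, −0.008 and 0.013. The subunit values were not corrected for these shifts. In ursolic acid sample 4 the shift of those rows, 0.021, was larger than the large subunit's value, 0.009. The separation of the groups in the large subunit therefore holds only for uncorrected values. For the small subunit the ursolic acid samples had 0.011, 0.037, 0.056 and −0.032, against −0.074, 0.008, 0.006 and −0.012 in control, and the groups overlapped. The large-minus-small value of ursolic acid samples 1 to 4 was 0.023, 0.0097, −0.017 and 0.041, against 0.0003, −0.047, −0.016 and 0.0061 in the controls, which overlapped as well (0.014 ± 0.024 and −0.014 ± 0.024, SD, n = 4 each).

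**Figure D3:**
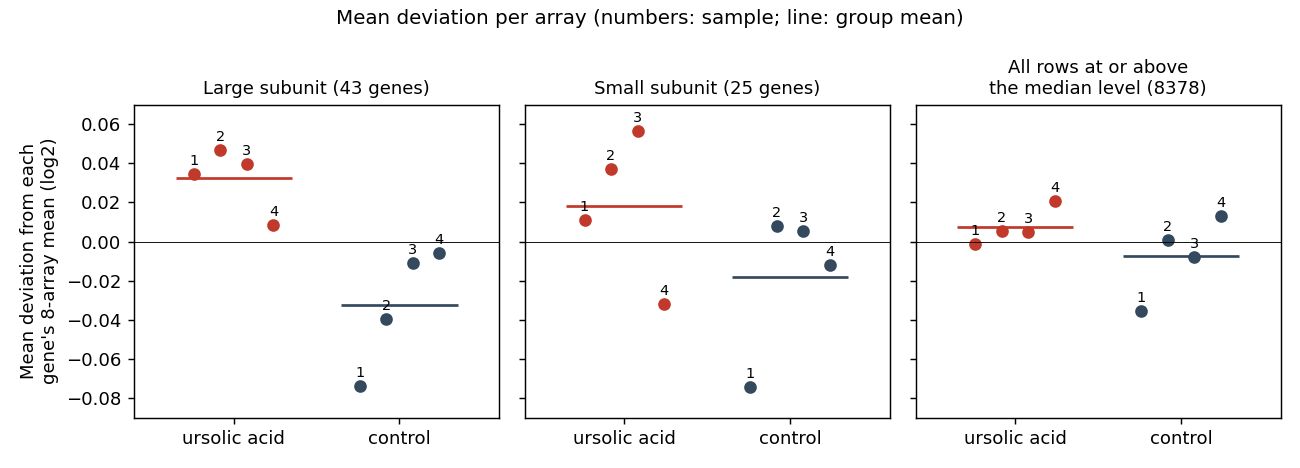
Mean deviation of each array from the 8-array mean of every gene (log2), for the 43 large subunit genes, the 25 small subunit genes and the 8378 rows at or above the median level, with a point per pooled sample, numbered, and a line at the group mean. Without correction for the shift of the rows at or above the median level, the large subunit points separate by group at 0. In the small subunit ursolic acid sample 4 (−0.032) lies among the controls. Control sample 1 is lowest in all 3 panels. For the rows at or above the median level, ursolic acid sample 4 is highest, at 0.021.

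Control sample 1 was the lowest array in both subunits. Of the 68 genes, 23, 15, 8 and 5 had their lowest value of the 8 arrays in control samples 1 to 4. In ursolic acid samples 1 to 4 these counts were 2, 3, 5 and 7. The rows at or above the median level were also low in control sample 1, by less, at −0.035 against −0.074 in the family. Without control sample 1 the median difference was 0.051 in the large and 0.0037 in the small subunit. It was 0.019 in the small subunit without ursolic acid sample 3 and 0.056 without ursolic acid sample 4, and in that fit the subunits' medians were 0.021 apart. Across all rows, brighter rows tended to have higher differences, with a Spearman correlation of 0.19 between difference and mean level over 16755 rows, and one of 0.08 among the 68 genes, a description over genes that share the same arrays. The part of this trend in the family's differences was not tested.

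**Figure D4:**
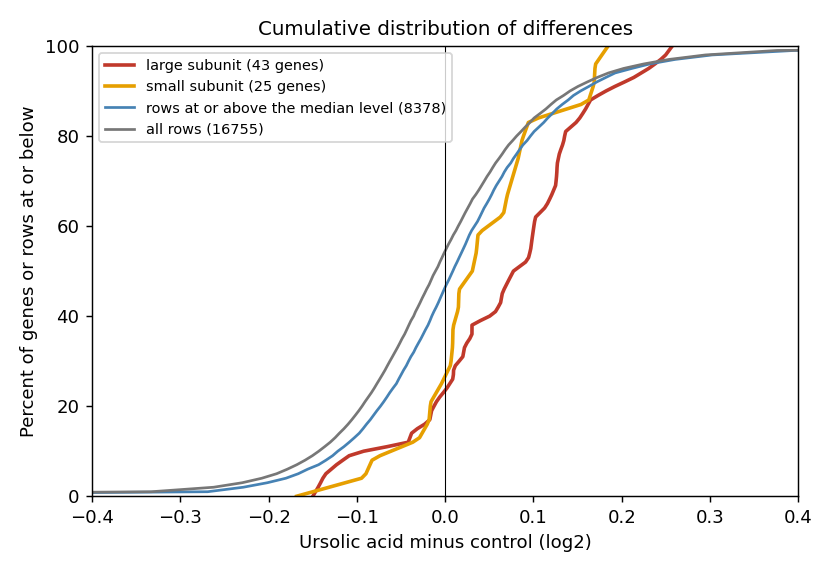
Cumulative distribution of the log2 differences, ursolic acid minus control, in the large subunit, the small subunit, the rows at or above the median level and all rows, with the percent of genes or rows at or below each difference on the vertical axis. Of the brighter rows 53.6% and of all rows 45.5% lie above 0, against 76.7% of the large and 72% of the small subunit genes, and the large subunit curve runs furthest right between 30 and 80 percent.

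Where a gene of the family has a divergent neighbour, both were measured in 17 of 21 pairs. Their differences were both positive in 8 pairs, both negative in 2 and opposite in 7. Psma2, the neighbour of Mrpl32, had a difference of 0.15 ± 0.06 (SE; limma adjusted p = 0.666), and Ndufb5, the neighbour of Mrpl47, one of 0.08 ± 0.06. Twnk beside Mrpl43, Hira, a histone chaperone, beside Mrpl40, and Zfp661 beside Mrps5 had 0.05 ± 0.08, 0.04 ± 0.07 and −0.05 ± 0.09. Mrpl46 and Mrps11 were the only pair in which both genes had an unadjusted p under 0.05.

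**Figure D5:**
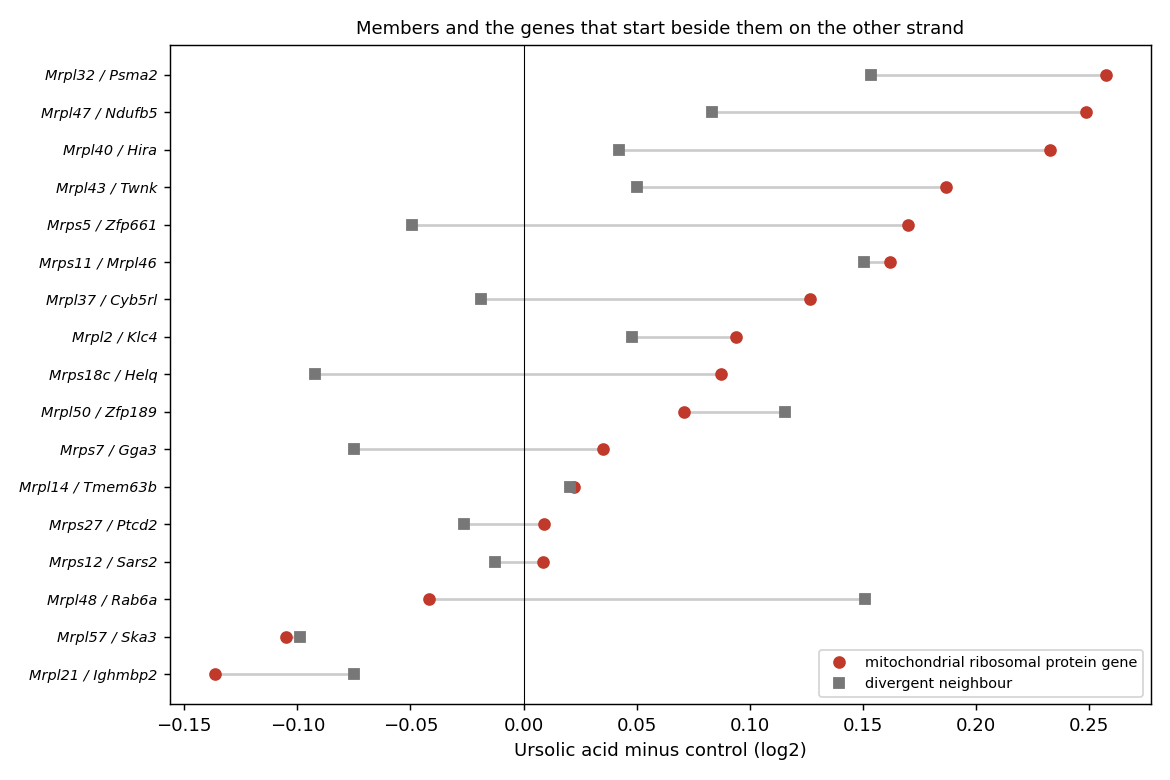
Log2 difference, ursolic acid minus control, of each family member (circle) and of the gene that starts beside it on the other strand (square), for the 17 pairs with both measured, ordered by the member. Mrps11 and Mrpl46, both family members, lie close together at 0.16 and 0.15, while in the pairs with Mrpl40, Mrpl43 and Mrps5 the neighbour lies nearer 0 than the member.

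The differences were also set beside the promoter matches. The 20 genes with the ETS letters had a median difference of 0.01 and the 39 without them 0.07, and 2 and 8 of these had an unadjusted p under 0.05. Genes with YY1 letters (11) and without (48) had medians of 0.04 and 0.06, and those with NRF-1 letters (11) and without (48) had 0.02 and 0.07. The CCAAT box was in 24 genes, of which 0 had an unadjusted p under 0.05, and was not found in 35, of which 10 had one, with medians of 0.03 and 0.08. The TATA box was in 5 genes and not found in 54, of which 1 and 9 had such a p, with medians of 0.03 and 0.06. These splits were not tested. Mrpl47, Mrpl40, Mrps2 and Mrps5 held none of the 5 motifs in their windows.

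Other proteins of mitochondrial translation were read from lists of known genes. Mitoribosomal proteins under other symbols were measured in 3 cases, Chchd1, Ptcd3 and Gadd45gip1, with differences of 0.10, 0.08 and −0.03. Of 13 translation factors, 10 were higher and 0 passed an unadjusted p of 0.05 in either direction, with a median of 0.09. Their mean deviation was lowest in control sample 1, at −0.137. Ursolic acid sample 4, at −0.047, lay below control samples 2 to 4. Tufm, among the 10, had a mean level of only 2.72, under the median row. Gfm1, the mitochondrial elongation factor G that moves the ribosome along the mRNA, had a difference of 0.12 ± 0.06 (SE; limma adjusted p = 0.735), and its groups did not overlap. Mrrf, the ribosome recycling factor, had one of 0.27 ± 0.15. Of 12 factors of mitochondrial transcription and RNA processing, 10 were higher, with a median of 0.11, and 1 passed an unadjusted p of 0.05: Prorp, the nuclease that frees the front end of mitochondrial tRNAs, at 0.22 ± 0.08 (SE; limma adjusted p = 0.549). The mean deviation of this list was lowest in control sample 1, at −0.151, and highest in control sample 4, at 0.065.

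The lists of assembly factors and tRNA synthetases did not lean upward. Of 21 assembly factors 9 were higher and 12 lower, with a median of −0.01, and only Ddx28, an RNA helicase of the large subunit's assembly, was under an unadjusted p of 0.05, at 0.25 ± 0.11 (SE; limma adjusted p = 0.703). Of 18 genes for mitochondrial aminoacyl-tRNA synthetases and related enzymes 9 were higher and 9 lower, with a median of 0.00, and Pars2, the prolyl-tRNA synthetase, had −0.24 ± 0.10 (SE; limma adjusted p = 0.661). The 10 nuclear regulators were split 5 and 5, and 0 passed an unadjusted p of 0.05 by limma. Among them Gabpa, the DNA-binding chain of GABP, Nrf1 and Yy1 had differences of 0.04, −0.09 and −0.06.

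Set beside similar gene families, complex I genes (Nduf symbols) were higher in 27 of 33, with a median of 0.06 and, at an unadjusted p of 0.05, 6.06% higher and 3.03% lower. Cytosolic ribosomal proteins (Rpl and Rps) were higher in 12 of 21, with a median of 0.01, a mean of −0.02 and, at that p, 9.52% higher and 4.76% lower. Neither family was tested against the mitochondrial ribosomal proteins. The mean deviation of the cytosolic family was −0.027, −0.008, 0.090 and −0.097 in ursolic acid samples, against −0.156, 0.083, 0.042 and 0.071 in control, and it too was lowest in control sample 1.

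Markers of macrophages and leukocytes differed between the groups in the same direction as the family. Of 21 measured markers 20 were higher and 16 had an unadjusted limma p under 0.05, with a median difference of 0.35 and mean deviations of 0.055 to 0.279 in ursolic acid samples, against −0.304 to −0.090 in control. Ctss, Cd74 and Tyrobp, with differences of 0.71, 0.43 and 0.69, had the smallest p (limma adjusted p = 0.0845 for each), so 0 markers passed an adjusted p of 0.05. The markers' mean deviation in ursolic acid samples 1 to 4 was 0.155, 0.055, 0.242 and 0.279. That of the ribosomal family was 0.026, 0.043, 0.046 and −0.006. In control samples 1 to 4 the markers had −0.147, −0.189, −0.304 and −0.090. There the ribosomal family had −0.074, −0.022, −0.005 and −0.008. Fibroblast markers were higher in 9 of 9, with a median of 0.19, and Lum, Postn and Mfap5 had an unadjusted p under 0.05, at 0.61, 0.48 and 0.27. Their list's mean deviation was 0.148, −0.160, 0.179 and 0.299 in ursolic acid samples 1 to 4. In control samples 1 to 4 it was −0.112, −0.178, −0.126 and −0.052, so the groups overlapped. Markers of muscle (5 of 9 higher, median 0.00), adipocytes (4 of 7, 0.07), endothelium (2 of 8, −0.09) and red cells (2 of 3, 0.01) had 0 genes at that p. The part of other cell types in the values of the ribosomal genes was not tested.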

How the data were processed

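RNA was taken up in TRIzol, amplified and labelled with biotin for 1-colour arrays, per the labels' protocols. The authors deposited log2 values made with RMA, and mm9 is named as a build, both per the submitters' processing notes. Which program ran RMA, how rows were filtered and the base of the logarithm are not stated there. RMA gives base 2 by definition, and the values, at most 13.2, fit it.

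Values of all 16755 rows entered 1 model per row (limma 3.58.1, R 4.3.3, moderated with eBayes) with 4 samples a group. Tests were two-sided, p-values were adjusted over all rows by the Benjamini-Hochberg method at 0.05, and intervals are 95% intervals. The fit was tested on simulated data with known changes in independent rows. Those changes were larger than any difference in the family, so the test does not cover differences of the family's size. Symbols are those of the platform annotation, and all 68 gene numbers matched the RefSeq table of GRCm38.p6. Members, lists, motifs and tests were chosen with earlier results of these data known. By rule, 31 genes were named (smallest p by subunit and direction, largest and smallest spread, and preset genes, of which Mrps22 and Mrpl44 had no row of their own) and Mrpl32, Mrpl24 and the other genes are named as the remaining members. Values of single samples are given for the genes the results turn on, and differences for the rest. The divergent neighbours and the comparison families were chosen after the data were seen. The labels do not say whether pools are separate in their mice, so p-values measure the spread between these pooled samples. Arrays have no read depth, so precision rests on the number of samples. Alternatives changed the normalization, the row filter, the variance model, array weights, the grouping, the block, the row rule and the samples, and the closing section names each. Motifs were searched on both strands. Protein sequences were not used here.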

Additional observations from a re-analysis of the deposited data

Results flagged for a closer look

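Each named gene, list mean and array measure was looked at within each group, 70 sets of 4 samples in all, and in 5 of them a single sample stood apart. Chance alone yields about 1 in 20. The number in brackets is the share of the group's range taken by the gap between that sample and its neighbour. Mrps11 in the ursolic acid group had sample 1 highest, at 7.22 (0.888). Mrpl11 in the control group had sample 2 highest, at 9.13 (0.923). Mrps18a in the control group had sample 3 lowest, at 8.91 (0.943). Mrps18c in the control group had sample 1 lowest, at 10.24 (0.903). The mean correlation of an array with the others was lowest in control sample 1 among the controls, at 0.977 (0.921).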

How the results depend on the processing

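In the 20 other settings in which it was counted, 0 of the family's genes passed an adjusted p of 0.05 by limma, while 27 of all rows did when only rows at or above the median level were fitted, 23 with array weights and 12 with a variance trend and robust moderation. The count of genes higher at an unadjusted p of 0.05, 10 as reported, ran from 4 to 9 when 1 sample was left out, and the count lower, 0 as reported, from 0 to 2. The count higher was 15 with the variance trend and robust moderation and 13 with the description as a covariate. It was 11 each with median centring, array weights and that level filter, and 10 with the mean of all rows of a gene. The count lower was 0 in each. Of the rows fitted in each of these settings, 4.10% to 6.65% were higher at that p. When 1 sample was left out, the medians ran from 0.051 to 0.094 in the large subunit, from 0.0037 to 0.056 in the small one, and from 0.021 to 0.067 for large minus small. Quantile normalization gave 4 higher and 1 lower (all rows 3.99% and 3.29%), with medians of 0.048 and 0.0005. Samples whose title and description give the same group, 2 a side, gave 4 higher (Mrpl13, Mrpl32, Mrpl40 and Mrpl47) and 1 lower (Mrpl4), where 4.85% and 5.89% of all rows passed, a small subunit median of 0.076 and a large minus small value of −0.013. Grouping all arrays by the description gave 0 higher and 2 lower (Mrpl4 and Mrpl28) by limma, where 5.14% and 7.38% of all rows passed, with a large subunit median of −0.010 and large minus small of −0.022. Within samples described as treated there were 5 higher and 1 lower (Mrpl33; all rows 3.38% and 3.31%), and within those described as untreated 1 higher (Mrpl47) and 0 lower (all rows 2.70% and 2.11%); both settings were added after seeing the data. The cause of these changes was not tested, beyond the smaller number of samples. With the replicate number as a block, 8 genes were higher and 0 lower (all rows 4.96% and 3.86%), within 1.5 times of the count without it. Samples of the same number correlated at 0.02 to 0.19 in their deviations from the group means, not all over 0.1, so the numbers are not taken to pair the samples. For ursolic acid samples 1 and 4 that correlation, 0.13 and 0.19, exceeded the highest with a control of another number, −0.02 and 0.06. For samples 2 and 3 it was below it, at 0.08 and 0.02 against 0.15 and 0.20. Of the 31 named genes, 20 kept the sign of their difference in every setting run for them. The description regrouping and the mean of all rows of a gene were not run for single genes. The 11 other named genes had an unadjusted limma p above 0.05 as reported.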
